A study of Mus musculus with 2 samples.

Results

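Rab proteins are small GTPases that mark membranes and direct the budding, transport, tethering and fusion of vesicles. A Rab is inserted into its membrane by a lipid tail, switched on by an exchange factor (GEF) that loads GTP, switched off by a GTPase-activating protein (GAP), and drawn off the membrane by a GDP dissociation inhibitor (GDI). In alveolar macrophages, which live in the air spaces and clear them of particles and spent surfactant, this traffic carries what was ingested from phagosome to lysosome and delivers receptors and secreted proteins to the cell surface.

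The Rab genes were the features that carry 1 gene symbol made of Rab, a number and at most a letter and a digit. There were 66 such features for 58 genes, of 22180 genes named by 23521 features in the series, and each gene was represented by its feature with the higher mean signal. The genes were sorted by the membrane their protein is best known for into ER and Golgi (14), early endosome (8), recycling endosome (10), late endosome and lysosome (11), secretory (11) and a remainder of cilium or unplaced Rabs (4). Several Rabs act at more than 1 membrane, so each was placed once, and the naming follows the array annotation, in which Rab7 and Rab9 are the genes also called Rab7a and Rab9a.

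The cells were alveolar macrophages isolated by flow sorting from lungs of mice that were 8 to 10 weeks old. One array came from Lysm-Cre mice, the control, and 1 from Lysm-Cre Ssu72fl/fl mice. Both carry Cre recombinase at the lysozyme 2 locus, which is active in the myeloid lineage at large and not in alveolar macrophages alone. The second also carries floxed Ssu72, a gene for a phosphatase of the RNA polymerase II tail, and the comparison asks how transcripts differed where Cre met the floxed allele. The sources used here do not give the number of mice behind an array.

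Since each genotype has a single array, there is no test and no error between animals, and the precision of every value is limited by the number of arrays. Values are log2 signals as deposited. A difference is Ssu72fl/fl minus control, so a gene called higher or lower is so in the sample labelled Ssu72fl/fl. The floor was the median of all values on both arrays, 4.65, and genes that exceeded it on 1 array or both were compared. The spread given beside a difference is the robust standard deviation of the differences of the 500 compared genes nearest in mean signal. It describes scatter between genes on these arrays, not between animals. Signals of different genes come from different probes and are not ranked against each other.

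The Ssu72 signal was 4.86 in the control and 4.998 in the sample labelled Ssu72fl/fl (0.14, spread 0.15). It therefore did not check the label, and all directions rest on the label alone. Lyz2 (10.2 and 9.74), Itgax (7.31 and 6.82) and Siglecf (5.18 and 5.09), markers of alveolar macrophages, were above the floor on both arrays. Of 11 measured alveolar macrophage markers 10 were lower, and the sum of their log2 signals was 80.9 on the control array and 77.9 on the other. Their median difference was -0.31, and it turned to 0.095 with the trend of differences with level, described below, removed. All 6 markers of interstitial macrophages and monocytes were lower, with summed log2 signals of 37.6 and 34.5. Their median difference was -0.43, or -0.31 with the trend removed. Of 7 markers of alveolar type 2 cells 6 were lower, with summed signals of 41.5 and 40.1 and a median difference of -0.20 (-0.095 with the trend removed). Of 5 neutrophil markers 4 were compared, all lower (-0.096 to -0.032), with summed signals of 23.8 and 23.6, and Ly6g was below the floor. Of 4 measured markers of T and NK cells only Nkg7 was compared (5.26 and 5.35, summed signals 19.0 and 19.2), and Cd3e, Cd3g and Klrb1c were below the floor. Of 3 measured B cell markers, Ighm (7.46 and 6.88, level-adjusted -0.11) was lower, Cd79a (4.98 and 5.15) higher and Ms4a1 below the floor, with summed signals of 17.0 and 16.6. All 3 endothelial markers were lower, among them Cdh5 (-0.47, level-adjusted -0.40), with summed signals of 15.7 and 15.1. Lower signals were found for 2 of 3 compared markers of club and ciliated cells (summed signals 22.6 and 22.6), 2 of 2 of dendritic cells (23.0 and 22.7) and 2 of 3 of fibroblasts (15.6 and 15.2). With the trend removed the median differences of these lists were 0.082, 0.035 and -0.061, in that order. The part of none of these cell types in the Rab results was tested. In bulk RNA of this kind, fewer cells of a type and less RNA per cell cannot be told apart.

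The members with the largest differences were Rab1a, Rab7 and Rab8b, all lower, and Rab3c, which was higher. The RefSeq promoter windows of these 4 genes (GRCm38.p6, 250 bases before to 50 after the start) are shown because their deposited differences were the largest. A link between promoter and difference was not tested. Rab1a is at chr11:20201162-20201461 (plus strand), Rab7 at chr6:88044968-88045267 (minus), Rab8b at chr9:66919656-66919955 (minus) and Rab3c at chr13:110280157-110280456 (minus). Capitals mark the GC box GGGCGG, the E-box CACGTG, the TATA box TATAAA, the CCAAT box CCAAT and the ETS core GGAAGT, searched on both strands and allowed to overlap.
Rab1a: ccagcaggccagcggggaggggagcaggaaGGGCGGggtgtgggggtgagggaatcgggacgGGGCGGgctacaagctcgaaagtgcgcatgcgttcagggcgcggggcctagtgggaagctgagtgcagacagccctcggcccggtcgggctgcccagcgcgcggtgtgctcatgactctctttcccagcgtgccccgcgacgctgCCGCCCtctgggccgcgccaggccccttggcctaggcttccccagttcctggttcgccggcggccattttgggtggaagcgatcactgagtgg
Rab7: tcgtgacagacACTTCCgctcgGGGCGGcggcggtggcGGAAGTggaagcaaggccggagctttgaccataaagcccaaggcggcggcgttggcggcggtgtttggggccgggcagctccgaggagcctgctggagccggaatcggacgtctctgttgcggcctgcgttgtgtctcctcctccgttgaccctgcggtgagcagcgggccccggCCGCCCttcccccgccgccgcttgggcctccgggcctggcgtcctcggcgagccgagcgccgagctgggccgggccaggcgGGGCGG
Rab8b: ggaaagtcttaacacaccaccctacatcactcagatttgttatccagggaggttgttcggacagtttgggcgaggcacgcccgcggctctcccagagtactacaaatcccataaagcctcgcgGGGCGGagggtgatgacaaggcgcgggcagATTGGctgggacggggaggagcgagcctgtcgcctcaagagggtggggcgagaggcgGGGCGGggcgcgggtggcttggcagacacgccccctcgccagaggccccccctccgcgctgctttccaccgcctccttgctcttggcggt
Rab3c: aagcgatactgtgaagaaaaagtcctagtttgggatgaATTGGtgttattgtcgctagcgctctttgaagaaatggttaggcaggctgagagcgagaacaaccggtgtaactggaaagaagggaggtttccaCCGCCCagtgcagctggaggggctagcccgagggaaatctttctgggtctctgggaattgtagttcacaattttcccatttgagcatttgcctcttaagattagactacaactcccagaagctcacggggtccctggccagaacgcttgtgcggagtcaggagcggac
The Rab1a, Rab7 and Rab8b windows were 70.3%, 73.7% and 65.3% G or C, and the Rab3c window 50.7%. RefSeq gives Rab7 another window, at chr6:88045221-88045520 (minus), not shown, which overlaps the first, is 61.0% G or C and also holds a TATA box and a CCAAT box. All 5 windows hold a GC box and none holds an E-box.

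Of the 58 Rab genes, 47 had at least 1 such window, and 35 of these (74.5%) held a GC box, against 49.2% of 17491 protein-coding genes with a window and 35.7% of all 32851 windows. The median G or C content was 61.0% over 59 Rab windows and 56.3% over the windows of all protein-coding genes. An E-box, the core of sites bound by lysosomal gene regulators such as TFEB, was found for 6 of the 47 Rab genes (12.8%, against 8.91% of protein-coding genes and 7.15% of all windows). A CCAAT box was found for 25 (53.2%, against 42.3% and 37.4%), an ETS core for 12 (25.5%, against 27.7% and 23.8%) and a TATA box for 4 (8.51%, against 14.8% and 13.6%). The 6 members past the threshold on the lower side, described next, all had a window. Of these, 4 held a GC box, 4 a CCAAT box, 3 an ETS core, 1 a TATA box and 0 an E-box.

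Of the 58 Rab genes, 35 were above the floor on both arrays, 8 on 1 array only and 15 on neither. Among the 43 compared, 30 were lower and 13 higher, a share lower of 69.8% where 51.9% of all 13015 compared genes were lower. The median difference was -0.077, against -0.0068 over all compared genes. Among members above the floor on both arrays 26 of 35 were lower (74.3%, against 53.8% of 10934 genes), and with no filter at all 37 of 58 were lower (63.8%, against 48.9% of 22180). Of the 43, 21 lay within the spread at their level (48.8%), where 66.3% of all compared genes did.

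The members Rab1a, Rab7, Rab8b, Rab11a, Rab32 and Rab8a were lower by 0.32 or more on the log2 scale, the threshold used here. That is 6 of 43 compared members (14.0%), where 6.23% of all compared genes were. Only Rab3c was higher by as much, 1 of 43 (2.33%) where 2.06% of all compared genes were. Past 1.5-fold there were 3 lower members (Rab1a, Rab7 and Rab8b; background 1.37%) and 1 higher (Rab3c; background 0.315%). As deposited no Rab gene differed by 2-fold, as 0.115% of all compared genes did. Rab3c did so with the level trend described below removed (1.16 on the log2 scale; background 0.0922%) or with quantile normalization (1.07). Just inside the threshold of 0.32 lay Rab8a (-0.33) and just outside it Rab10 and Rab2a (both -0.30).

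**Figure D1:**
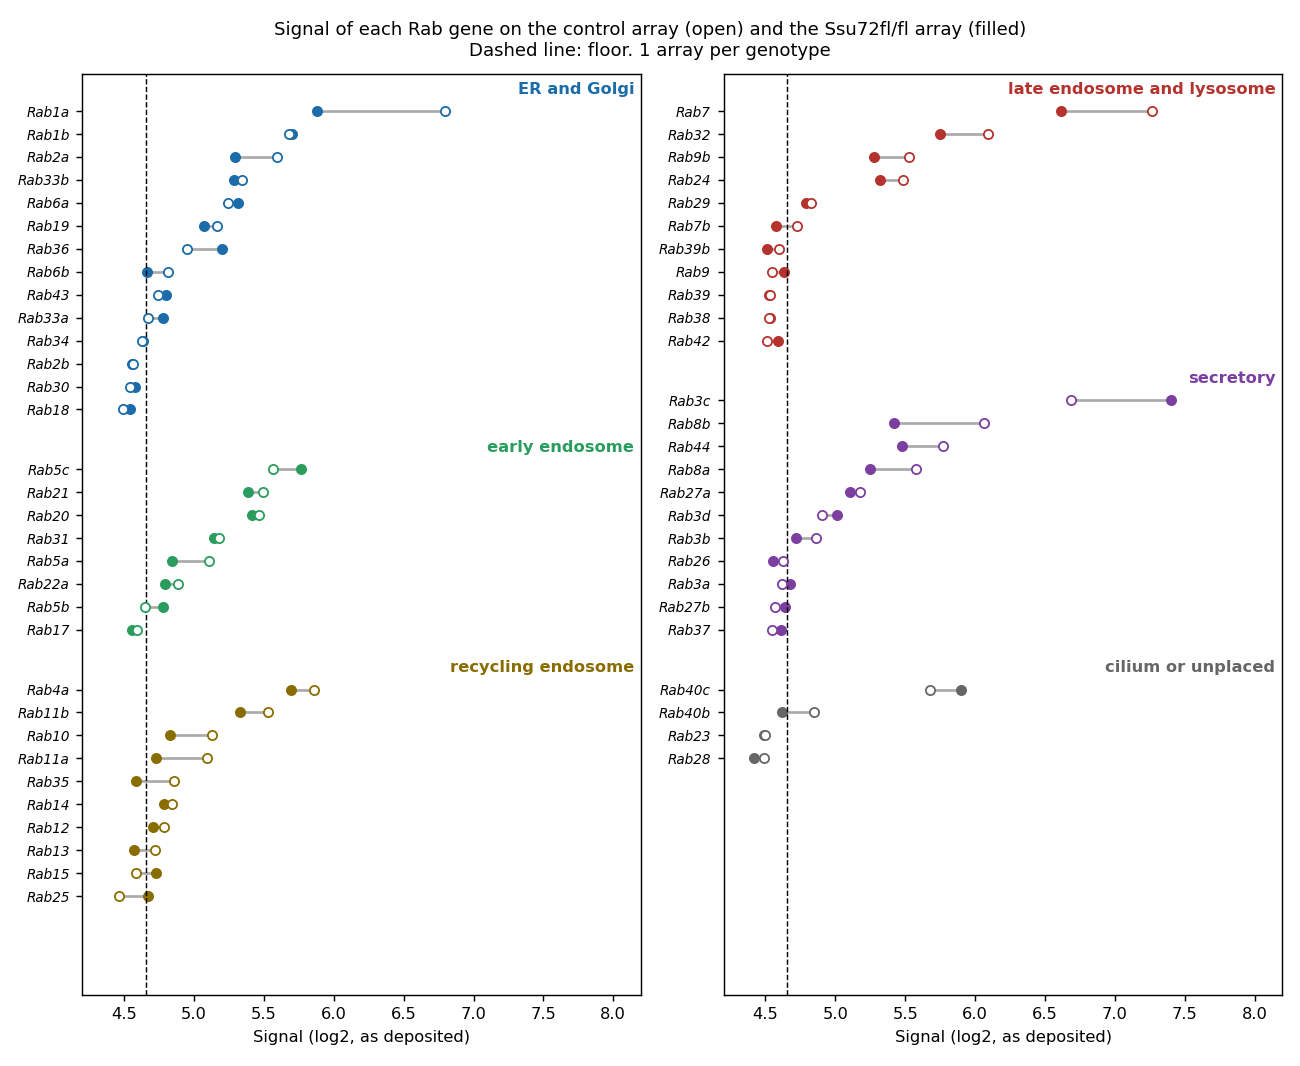
Signal of each of the 58 Rab genes (x axis, log2 as deposited) on the control array (open circles) and the array labelled Ssu72fl/fl (filled circles), grouped by compartment, with the floor of 4.65 as a dashed line. The longest bars belong to Rab1a, Rab3c, Rab7 and Rab8b, and Rab3c is the one of these whose filled circle lies to the right; 15 genes have both circles left of the line.

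The differences between the arrays depended on signal, which sets how a Rab gene's difference can be read. The median difference of compared genes was 0.0080 at mean levels from 4 to 5, -0.031 from 5 to 6, -0.19 from 6 to 7 and -0.42 from 7 to 8. Among 856 compared genes at a mean level of 6 or more, 43.1% passed the threshold on the lower side and 5.37% on the higher side. Only 3 Rab genes (Rab1a, Rab7 and Rab3c) lay there, and 20 lay at levels 4 to 5. Of these 20, 13 were lower, with a median of -0.071; of 20 at levels 5 to 6, 15 were lower, with a median of -0.096, where 46.5% and 56.5% of all genes were. A level-adjusted difference is therefore given below, which is the difference minus the running median over the 500 features nearest in mean signal.

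With the level trend removed, 29 of 43 Rab genes were still lower (67.4%, against 49.1% of all compared genes), and the median was -0.074 (0.0021 over all compared genes). The count past the threshold on the lower side was 3 (Rab1a, Rab8b and Rab11a; 6.98%, against 3.03%), and on the higher side 2 (Rab3c and Rab40c; 4.65%, against 3.69%). The split of members past the threshold thus went from 6 lower and 1 higher to 3 lower and 2 higher. With the trend taken from compared genes only, it was 3 lower and 1 higher (Rab3c), and Rab40c fell just short. Of the 35 members above the floor on both arrays, 14 (40.0%) had a level-adjusted difference larger than their spread, where 28.9% of such genes did.

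**Figure D2:**
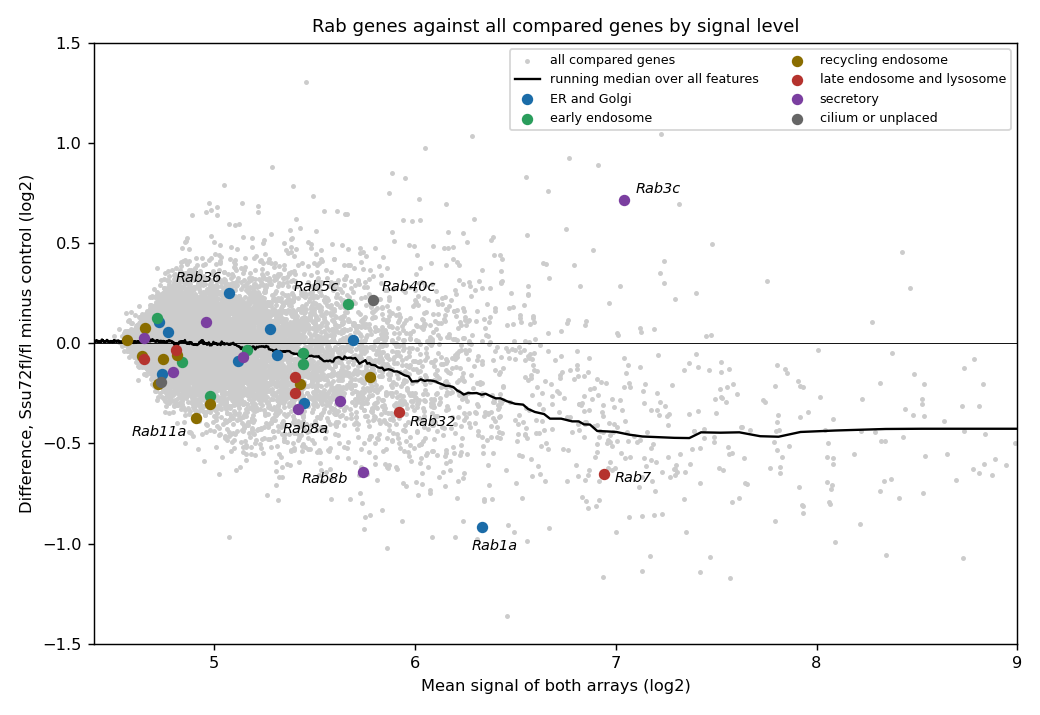
Difference between the arrays (y axis, log2, Ssu72fl/fl minus control) against mean signal (x axis, log2) for all compared genes (grey) and the 43 compared Rab genes (coloured by compartment), with the running median over all features as a black line. The line falls away from 0 as the level rises to about 7 and is nearly flat beyond. Rab1a and Rab8b lie well below the line, Rab7 and Rab32 nearer to it, and Rab3c far above it.

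Among the ER and Golgi Rabs, 1 gene stood apart and the others were divided. Rab1a, which drives ER to Golgi transport and early autophagy, read 6.79 in the control and 5.88 in the other sample. Its difference of -0.91 (1.89-fold lower) was 2.90 times the spread of 0.32 at its level, and 22 of the 13015 compared genes had a lower one. Level-adjusted it was -0.66, which is 2.10 times the spread. Its close relative Rab1b, which works at the same step, was at 5.68 and 5.70, a difference of 0.016 inside a spread of 0.24. The paralogs thus had different values here, although the sources used here do not say how well the probes tell them apart.

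Rab2a, which acts in Golgi to ER retrieval and in fusion with lysosomes, was at 5.59 and 5.30 (-0.30, level-adjusted -0.23, spread 0.21). Rab36, a Golgi Rab, was the highest of the group, at 4.95 and 5.20 (0.25, spread 0.16), followed by Rab33a (0.11). Rab6a, the Rab of retrograde Golgi transport, was at 5.24 and 5.31 (0.070, spread 0.20). Rab33b, which binds the autophagy protein Atg16l1, was at 5.34 and 5.28 (-0.060, spread 0.20). Rab6b (4.81 and 4.66, -0.15), the form of Rab6a known from neurons, Rab19 (5.16 and 5.07, -0.089) and Rab43 (4.74 and 4.80, 0.056) completed the compared genes. The 10 compared genes split into 5 lower and 5 higher (50% lower, near the 51.9% of all compared genes), and their median was -0.022. The sign of that median turned to 0.015 with the level trend removed.

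The early endosome Rabs differed among themselves. Rab5a, the Rab that fuses early endosomes and is the first on many new phagosomes, was at 5.11 and 4.84 (-0.27, level-adjusted -0.26, spread 0.15). Rab5c, a paralog with a similar role, was higher, at 5.56 and 5.76 (0.20, level-adjusted 0.28, spread 0.24), and Rab5b was above the floor only in the sample labelled Ssu72fl/fl, at least 0.13 higher. Within the Rab5 subfamily the 3 genes thus did not share a direction.

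Rab20, a phagosomal Rab that interferon gamma induces, was at 5.47 and 5.42 (-0.048, level-adjusted 0.014, spread 0.22), and its second feature was at 5.13 and 4.93 (-0.20). Rab31, which acts between the trans Golgi and early endosomes, was at 5.18 and 5.15 (-0.036, spread 0.18). Rab21, of integrin traffic, was at 5.49 and 5.39 (-0.10, spread 0.22), and Rab22a at 4.89 and 4.79 (-0.094, spread 0.13). In this group 5 of 7 compared genes were lower (71.4%, against 51.9% of all compared genes), with a median of -0.048 (level-adjusted -0.010). Level-adjusted, 4 of 7 were lower (57.1%, against 49.1%).

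All 6 recycling endosome Rabs above the floor on both arrays were lower, where 53.8% of all such genes were. Rab11a, the main Rab of slow recycling to the plasma membrane, was at 5.10 and 4.72, a difference of -0.37 (1.29-fold lower) and 2.85 times the spread of 0.13. Level-adjusted it was -0.36. Raising the floor to the 75th percentile, above its signal in the other sample, left only a bound of -0.13. Its paralog Rab11b was at 5.53 and 5.33 (-0.21, spread 0.21). A second feature of Rab11b gave -0.22, and the third was below the floor on both arrays.

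Rab10, which in macrophages carries Tlr4 to the surface, was at 5.13 and 4.83 (-0.30, level-adjusted -0.30, spread 0.15). Rab4a, of fast recycling, was at 5.86 and 5.69 (-0.17, level-adjusted -0.071, spread 0.24). Rab14 (4.84 and 4.79, -0.058), which acts between recycling endosomes, the trans Golgi and phagosomes, and Rab12 (4.78 and 4.71, -0.077) lay within their spreads of 0.12 and 0.10. Rab35, of fast recycling and actin, was above the floor only in the control, at least 0.20 lower. Rab13, a Rab of tight junctions, was above the floor only in the control (at least 0.065 lower) and Rab15 only in the sample labelled Ssu72fl/fl (at least 0.076 higher). Rab25, the Rab11 relative of epithelia, was 0.017 above the floor on the array labelled Ssu72fl/fl and below it on the control array. Rab35, Rab13, Rab15 and Rab25 were each compared through 1 array alone, so the floor fixed their direction. Over the 10 compared genes, 8 were lower (80.0%, against 51.9% of all compared genes), with a median of -0.12 (level-adjusted -0.080).

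The late endosome and lysosome Rabs were lower in all 6 compared genes, with a median of -0.21 (level-adjusted -0.15, also 6 of 6 lower), where 51.9% of all compared genes were lower. Rab7b, 1 of the 6, was compared through the control array alone and so could only be lower. With no floor 8 of all 11 genes of the group were lower (72.7%, against 48.9% of all genes), the median was -0.087, and Rab9 (0.088), Rab42 (0.078) and Rab38 (0.0072) were higher, all 3 from signals below the floor. Rab7, the Rab that matures late endosomes and phagosomes and brings them to lysosomes, was at 7.27 and 6.61. Its difference of -0.65 (1.57-fold lower) was 2.08 times the spread of 0.32, but genes at this level were lower in general. The level-adjusted difference was -0.22, smaller than the spread. When the trend was taken from compared genes only it was -0.31.

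Rab32, a Rab of lysosome-related organelles and mitochondria, was at 6.09 and 5.75 (-0.34, level-adjusted -0.20, spread 0.27). Rab9b, which acts in return from late endosomes to the trans Golgi, was at 5.53 and 5.28 (-0.25, level-adjusted -0.20, spread 0.21). Rab24, linked to autophagosomes, was at 5.48 and 5.32 (-0.17, spread 0.21), and Rab29, a partner of the kinase Lrrk2, at 4.83 and 4.79 (-0.034, spread 0.12). Rab7b was above the floor only on the control array (at least 0.076 lower). None of the 5 members above the floor on both arrays had a level-adjusted difference larger than its spread, where 28.9% of such genes did. With 5 members this count says little about the group.

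The secretory Rabs held the pair Rab8a and Rab8b, which carry cargo from the trans Golgi to the plasma membrane. Rab8a also acts on macropinosomes. Rab8b was at 6.06 and 5.42, a difference of -0.64 (1.56-fold lower) and 2.72 times the spread of 0.24, and it stayed at -0.55 when level-adjusted. Rab8a was at 5.58 and 5.25 (-0.33, level-adjusted -0.28, spread 0.21). A second Rab8a feature was below the floor on both arrays, and the mean of both features gave -0.14, short of the threshold. Both paralogs were thus lower, by different amounts.

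Rab44, a large Rab of granules in bone marrow derived cells, was at 5.77 and 5.48 (-0.29, level-adjusted -0.22, spread 0.24). Rab27a, which docks secretory lysosomes and exosomes, was at 5.18 and 5.11 (-0.068, spread 0.17). Rab3d, of secretory granules, was higher, at 4.90 and 5.01 (0.11, spread 0.15). Its second feature, also above the floor on both arrays, was at 4.68 and 4.69 (0.016). Of the 8 compared secretory genes 5 were lower (62.5%, against 51.9% of all compared genes), with a median of -0.11 (level-adjusted -0.099, and -0.068 with no floor).

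Rab3c, a Rab best known from synaptic vesicles of neurons, was at 6.69 and 7.40. The difference was 0.71 (1.64-fold higher), or 1.16 when level-adjusted, 3.84 times the spread of 0.30, and 17 compared genes had a higher one as deposited. This rests on 1 feature: the other Rab3c feature read 4.41 and 4.44, below the floor on both arrays, and the mean of both features gave 0.37. The features therefore do not give the same picture of this gene, and which transcript the brighter one measures was not tested. Rab3a was below the floor on the control array and Rab3b was at 4.86 and 4.72 (-0.14).

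**Figure D3:**
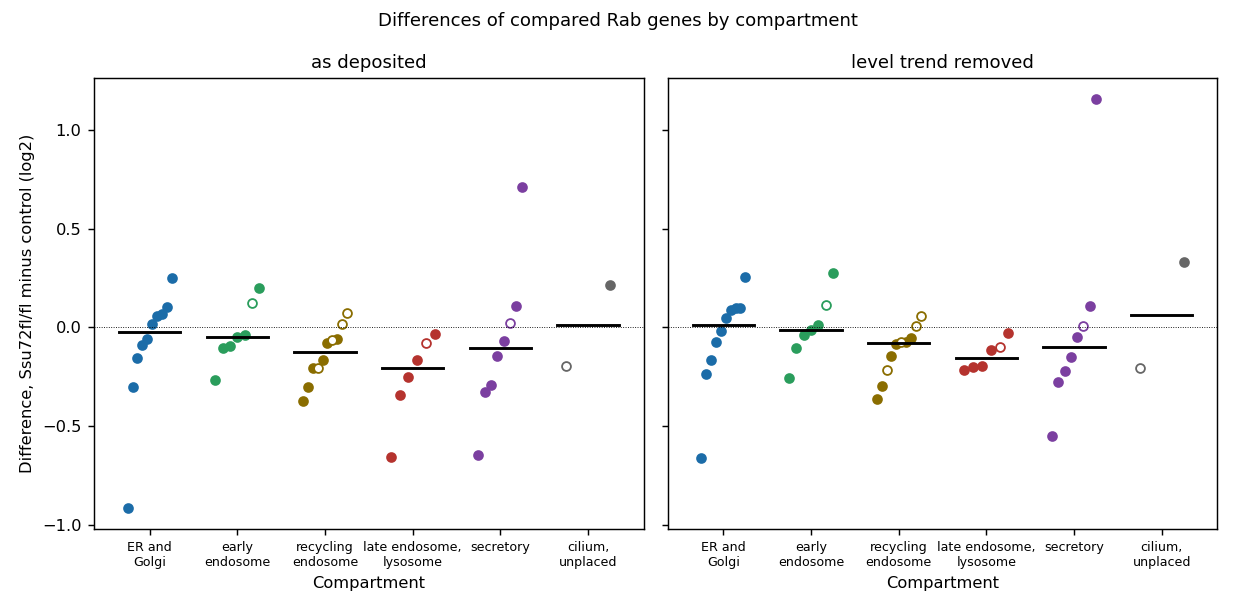
Differences of the 43 compared Rab genes (y axis, log2, Ssu72fl/fl minus control) by compartment (x axis), as deposited (left) and with the level trend removed (right). Points are genes, open where 1 array was below the floor, and bars are medians; all late endosome and lysosome points lie below 0 in both panels, and the ER and Golgi median lies near 0.

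Outside these compartments, Rab40c, an adaptor of cullin ubiquitin ligases, was at 5.68 and 5.90 (0.22, level-adjusted 0.33, spread 0.25). Its paralog Rab40b was above the floor only in the control, at least 0.19 lower. The cilium Rabs Rab23 and Rab28 were below the floor on both arrays.

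The 15 genes below the floor on both arrays had signals from 4.42 to 4.64 and deposited differences from -0.087 to 0.088, and no fold is given for them. They were Rab2b, Rab18, Rab30 and Rab34 of the ER and Golgi, Rab17, Rab9, Rab38, Rab39, Rab39b and Rab42, the secretory Rab26, Rab27b and Rab37, and Rab23 and Rab28. Rab17 of polarized epithelia and Rab38, which alveolar type 2 cells use for their lamellar bodies, were among them. Sftpc, the surfactant gene of those cells, was at 8.71 and 8.35. These signals come from different probes, and the part of those cells was not tested. The 8 genes above the floor on 1 array had bounds from -0.20 to 0.13. Rab4b was not a member, since both its features are shared with other genes.

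Of 161 genes fixed as regulators and effectors of Rab proteins, 151 were named on the array and 122 compared. Lower signals were found for 78 of the 122 and higher ones for 44 (63.9% lower, against 51.9% of all compared genes), with a median of -0.042. Past the threshold were 7 on the lower side (5.74%) and 0 on the higher. The first share is near the 6.23% of all compared genes, and for the higher side 2.06% of all compared genes passed. With the level trend removed, 4 (3.28%, against 3.03% of all compared genes) passed it on the lower side and 1, Mon1b (0.82%, against 3.69%), on the higher.

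Of 7 compared genes that attach Rabs to membranes or take them off, 5 were lower (71.4%, against 51.9% of all compared genes), with a median of -0.058. Gdi2, the GDP dissociation inhibitor that recycles Rabs through the cytosol, was at 6.80 and 6.24 (-0.56, level-adjusted -0.25, spread 0.33). Rabac1, a membrane protein that frees Rabs from GDI, was at 5.81 and 5.40 (-0.41, level-adjusted -0.33, spread 0.24). The subunit Rabggta of the enzyme that adds the lipid tail was at 4.88 and 4.95 (0.071), and Rabif, a chaperone of nucleotide-free Rabs, at 4.81 and 4.90 (0.083), both within their spread of 0.13.

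Of 37 compared GEF genes 23 were lower (62.2%, against 51.9% of all compared genes), with a median of -0.043 (level-adjusted -0.027). The lowest were Dennd2a, at 6.08 and 5.65 (-0.43, level-adjusted -0.30, spread 0.26), and Rin3, an activator of Rab5 family members, at 5.56 and 5.14 (-0.42, level-adjusted -0.37, spread 0.20). The highest was Mon1b, at 5.26 and 5.54 (0.28, level-adjusted 0.33, spread 0.21), followed by Dennd6b (0.27). Mon1 proteins form the Rab7 activator with Ccz1; Mon1a was at 5.08 and 4.92 (-0.17), opposite in direction to Mon1b, and Ccz1 was below the floor on both arrays.

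Of 30 compared GAP genes 21 were lower (70.0%, against 51.9% of all compared genes), with a median of -0.043 (level-adjusted -0.044). Among the 25 above the floor on both arrays 18 were lower (72.0%, against 53.8% of such genes). The ends among those above the floor on both arrays were Tbc1d9, at 6.09 and 5.73 (-0.36, level-adjusted -0.22, spread 0.26), Tbc1d20, a GAP of Rab1, at 5.54 and 5.24 (-0.30, level-adjusted -0.25, spread 0.21), and, on the higher side, Tbc1d9b (0.18) and Tbc1d25 (0.098). Tbc1d2b, above the floor only in the sample labelled Ssu72fl/fl, was at least 0.15 higher. Tbc1d15, next after Tbc1d20 on the lower side and named after its values were seen, was at 5.07 and 4.80 (-0.27, level-adjusted -0.28, spread 0.15).

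Of 48 compared effector and tether genes 29 were lower (60.4%, against 51.9% of all compared genes), with a median of -0.040 (level-adjusted -0.026). The lowest were Vps39, at 5.41 and 4.94 (-0.47, level-adjusted -0.45, spread 0.18), and Vps41, at 5.38 and 4.998 (-0.38, level-adjusted -0.36, spread 0.19). These are the subunits of the HOPS tether, which fuses late endosomes with lysosomes, that set it apart from the related early endosome tether CORVET. The core subunits that both tethers share, named after their values were seen, were Vps11 (-0.11), Vps16 (0.098), Vps18 (0.071) and Vps33a (0.087), and the CORVET subunits were Tgfbrap1 (-0.12) and Vps8 (-0.11, level-adjusted 0.100).

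Next after the HOPS subunits came Plekhm1 (5.59 and 5.28, -0.30, level-adjusted -0.24) and Rilp (5.77 and 5.52, -0.25, level-adjusted -0.17), adaptors that bind Rab7. Other Rab7 effectors of the list, again named after their values were seen, were Fyco1 (-0.18), Rubcn (-0.015) and Osbpl1a, which was below the floor. The Rab5 effectors of the list, named after their values were seen, went in both directions. Eea1 was at -0.23 and Rabep1 at -0.18, and Appl1, above the floor only in the control, was at least 0.15 lower. Rabep2, the paralog of Rabep1, was at 0.10 and Pik3c3 at 0.023, and Rbsn was below the floor. The highest members were Bicd2, a dynein adaptor bound by Rab6, at 4.85 and 5.03 (0.19, spread 0.15), and the kinase gene Lrrk1 (5.40 and 5.55, 0.15, spread 0.22).

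**Figure D4:**
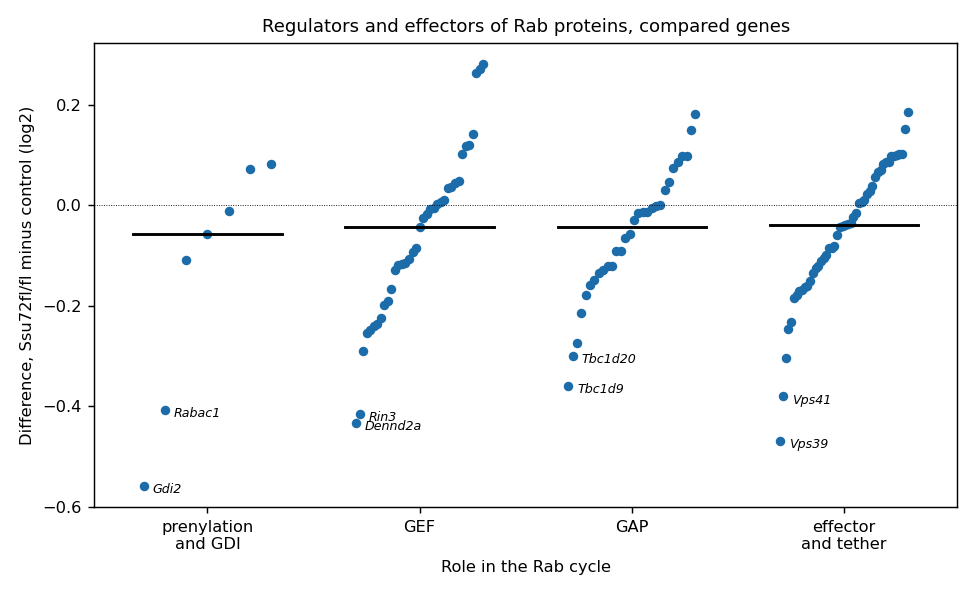
Differences (y axis, log2, Ssu72fl/fl minus control) of the 122 compared regulator and effector genes, by role in the Rab cycle (x axis). Points are genes, the 2 lowest of each role are named, and bars are medians, all 4 between -0.06 and -0.04.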

How the data were processed

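The series has 2 Affymetrix gene-level arrays, 1 per genotype, grouped by the genotype label. Each was hybridised with biotinylated cRNA from 6 ug of RNA, per the labels' protocols. The deposited values are on a log2 scale, as inferred from their range of 4.23 to 13.5; how the authors corrected background, normalized and centred them is not stated in the sources used here. The submitters' processing notes name only MAS5, with no role. The column medians were 4.65 and 4.66. Low signals may carry an offset that shrinks differences.

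Features were named from the platform annotation and updated through Entrez identifiers to RefSeq symbols (GRCm38.p6): of 33793 features, 23521 carried 1 symbol, 1814 several and 8458 none, and 23328 of the first matched, among them all 66 Rab features. Values below the floor, the 50th percentile of all values, were set to it before differences were taken.

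The members, the lists and the threshold of 0.32 (log2) were chosen with earlier results of these data known. Members above the floor on both arrays could be named, as could the 2 highest and 2 lowest genes of each regulator list; other genes named were chosen after their values were seen. Alternatives were removal of the level trend (running median of 500 features, or of 500 compared genes, the latter chosen after seeing the data), quantile normalization, median centring, floors at the 25th and 75th percentile, no floor, the mean of a gene's features, and thresholds of 1.5-fold and 2-fold. Python 3.11.15, numpy 2.4.6 and pandas 2.3.3 were used, and the code was tested on simulated data.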

Additional observations from a re-analysis of the deposited data

How the results depend on the processing

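All 8 alternatives that change the values or the genes compared had more Rab genes lower than higher. The share lower among all compared genes was smallest with quantile normalization (48.2%), where 29 of 43 Rab genes were lower. It was largest with the floor at the 75th percentile (57.5%), where 20 of 27 Rab genes were lower. The median over compared Rab genes was below 0 in each alternative, and with the floor at the 75th percentile it was -0.13. The count of Rab genes lower by 0.32 or more was 3 with the level trend removed from either reference set or with quantile normalization. That is 6.98% of 43, against 3.03% (trend over all features), 3.47% (trend of compared genes) and 3.06% (quantile normalization) of all compared genes. The count was 3 at 1.5-fold (1.37% of all compared genes) and 0 at 2-fold (0.085%). The count higher was 2 with the trend over all features removed (3.69% of all compared genes) or quantile normalization (3.76%). It was 1 with the trend of compared genes removed (3.20%) and 0 at 2-fold (0.031%).

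The ER and Golgi median changed sign: it was 0.015 with the level trend removed, 0.016 with quantile normalization, 0.012 with the floor at the 25th percentile or no floor, and 0.0072 with the trend of compared genes removed. It was -0.034 with median centring, -0.060 with the floor at the 75th percentile and -0.00054 with the mean of features. The early endosome median was -0.010 with the trend removed, -0.014 with quantile normalization, -0.094 with the mean of features and -0.022 with the trend of compared genes removed. The recycling endosome median was -0.080 with either trend removed and -0.078 with quantile normalization. The late endosome and lysosome median was -0.087 with the floor at the 25th percentile or no floor, where 5 more genes enter. The secretory median was -0.068 with those 2 floors and -0.18 with the floor at the 75th percentile.

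With the floor at the 75th percentile, the prenylation and GDI median was -0.41, the GEF median -0.067 and the GAP median -0.066. The GEF median was -0.027 with the trend removed and -0.026 with quantile normalization or no floor. The GAP median was -0.023 with the mean of features. The effector median was -0.026 with the trend removed and -0.023 with quantile normalization. The causes were not tested. No paired analysis was possible because each genotype had 1 array, and for the same reason no array could be left out. Signal near the floor limits what could be seen of 23 of the 58 Rab genes.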
